A study of Homo sapiens with 21 samples.

Results

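Heat shock proteins are chaperones that bind unfolded proteins, keep them from clumping and help them refold. HSP70 proteins work in cycles with J-domain proteins, which hand them clients, and with exchange factors, which release the client, while HSP90 proteins finish and stabilise a narrower set of clients. Heat shock factor 1 (HSF1) induces many of these genes when proteins unfold, by binding heat shock elements, arrays of inverted GAA units, upstream of the start of transcription. The genes described here are 10 of the 37637 features in the deposited count table: HSPA1A, HSPA1B and HSPA8 (HSP70), HSPH1 and BAG3 (exchange factors of HSP70), DNAJB1 (a J-domain protein), HSP90AA1 and HSP90AB1 (cytosolic HSP90), HSPB1 (a small heat shock protein) and HSPD1 (the mitochondrial chaperonin HSP60). They were taken as a list of symbols and matched to Ensembl identifiers. Each of the 10 passed the filter on low counts, as did 17468 features in all.

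The cells were HepG2, a human liver tumour line, which was kept in serum-free DMEM with caffeine for 6 h. There were 3 libraries at each of 7 doses: 0 (labelled untreated), 0.01, 0.1, 1, 10, 100 and 1000 µM. For the 0 µM control the series' own design text names coumarin where the sample labels name caffeine, and the sample labels were followed here. Caffeine blocks adenosine receptors and inhibits phosphodiesterases. The untreated wells were also in serum-free medium, so every group shares the removal of serum, and all cells come from 1 line.

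Libraries held 28043623 to 40827833 counts (median 32497612), and the 12 liver cell markers examined were at or above 1 CPM (counts scaled to the size of the library) in all 21 libraries. Of 11 markers of other cells in the table, 8 were below 1 CPM throughout, while LYZ was at 841 to 1337 CPM and ACTA2 at 35.8 to 75.6 CPM. The share of counts from the mitochondrial genome ran from 4.95% to 14.2%. The libraries that stood most apart from the others of their dose were 0.01 µM replicate 1 and 1 µM replicate 3, and a call on a member that changed without both is given with both values. The libraries also differed in how strongly counts followed the GC content of the transcript: log2 CPM per 10 GC percentage points was 0.0624 to 0.160 at 0 µM, -0.304 in 0.01 µM replicate 1, and -0.00373, -0.188 and -0.244 in the 3 libraries at 1000 µM. Where removal of this trend and that of transcript length changed the call on a named gene, or moved a called value by over 1.5 times, both values are given. A bulk library cannot tell fewer expressing cells from less RNA per cell.

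The upstream sequences of the members are shown because the heat shock element is the shared control sequence of this family and because the pair HSPA1A and HSPA1B can hardly be told apart by sequence. They are stretches around the element nearest to the start, come from RefSeq (GRCh38.p14) and lie within the 250 bases before an annotated start, and for a gene with several starts the one whose window held an element is shown. They run 5′ to 3′ on the gene's strand, and capitals mark each match to GAANNTTC or TTCNNGAA, which is 2 inverted units and includes longer arrays.

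HSPA1A, chr6:31815413-31815542, plus strand: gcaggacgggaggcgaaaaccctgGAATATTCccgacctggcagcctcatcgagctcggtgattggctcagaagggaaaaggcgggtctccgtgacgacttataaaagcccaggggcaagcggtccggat
HSPA1B, chr6:31827608-31827737, plus strand: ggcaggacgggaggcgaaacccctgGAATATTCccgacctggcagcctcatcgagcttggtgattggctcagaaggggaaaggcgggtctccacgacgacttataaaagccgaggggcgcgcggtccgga
HSPA8, chr11:123062164-123062206, minus strand: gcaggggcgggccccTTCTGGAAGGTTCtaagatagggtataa
DNAJB1, chr19:14518422-14518489, minus strand: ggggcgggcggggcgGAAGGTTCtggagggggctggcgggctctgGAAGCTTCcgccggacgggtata
HSP90AA1, chr14:102087090-102087147, minus strand: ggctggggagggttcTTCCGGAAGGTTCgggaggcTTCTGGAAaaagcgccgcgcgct
HSP90AB1, chr6:44247763-44247858, plus strand: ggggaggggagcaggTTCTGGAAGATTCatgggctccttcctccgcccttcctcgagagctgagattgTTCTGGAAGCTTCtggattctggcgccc
HSPB1, chr7:76302476-76302513, plus strand: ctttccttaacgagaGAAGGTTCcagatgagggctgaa
HSPD1, chr2:197500053-197500090, minus strand: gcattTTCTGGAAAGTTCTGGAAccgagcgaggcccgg

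A match to 3 inverted units (GAANNTTCNNGAA or TTCNNGAANNTTC, both strands) was in the windows of 4 of 10 members, HSPA8, HSP90AA1, HSP90AB1 and HSPD1. Since some genes have several starts, the 10 members have 16 windows, and 4 of these 16 held the match, against 0.441% of the 35116 upstream windows in the RefSeq table. The 2-unit match was in 8 of 10 members, all but HSPH1 and BAG3, and in 8 of the 16 windows, against 11.6% of all windows. TATAAA was in 2 of the 16 windows, those of HSPA1A and HSPA1B, against 10.7% of all, and CCAAT was in 7 of the 16, from 5 members, against 32.0%. A match describes letters in a window and is not a measured binding site. The windows of HSPA1A and HSPA1B were 93.6% identical, with 14 mismatches and 2 gap bases.

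In untreated cells the most abundant members per length of transcript were HSP90AB1, at 1452 CPM per kilobase ± 26.7 (SD, n = 3), HSPA8, at 1064 ± 92.4, and HSPD1, at 978 ± 58.4. HSPA8 and HSPD1 overlapped between libraries, and no other neighbours in the order did. HSP90AA1 followed at 497 ± 25.2 CPM per kilobase. HSPB1 was at 128 ± 5.56, DNAJB1 at 84.7 ± 3.36, HSPA1B at 44.7 ± 3.27 and HSPH1 at 36.4 ± 1.81 CPM per kilobase. BAG3, at 28.4 ± 1.53, and HSPA1A, at 18.2 ± 4.39 CPM per kilobase, were the lowest. The lengths are those of the longest protein-coding transcript in GENCODE v29, and the split of counts between HSPA1A and HSPA1B is uncertain. Whether reads that match both genes were kept is not given, so the places of this pair in the order are uncertain too.

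**Figure D1:**
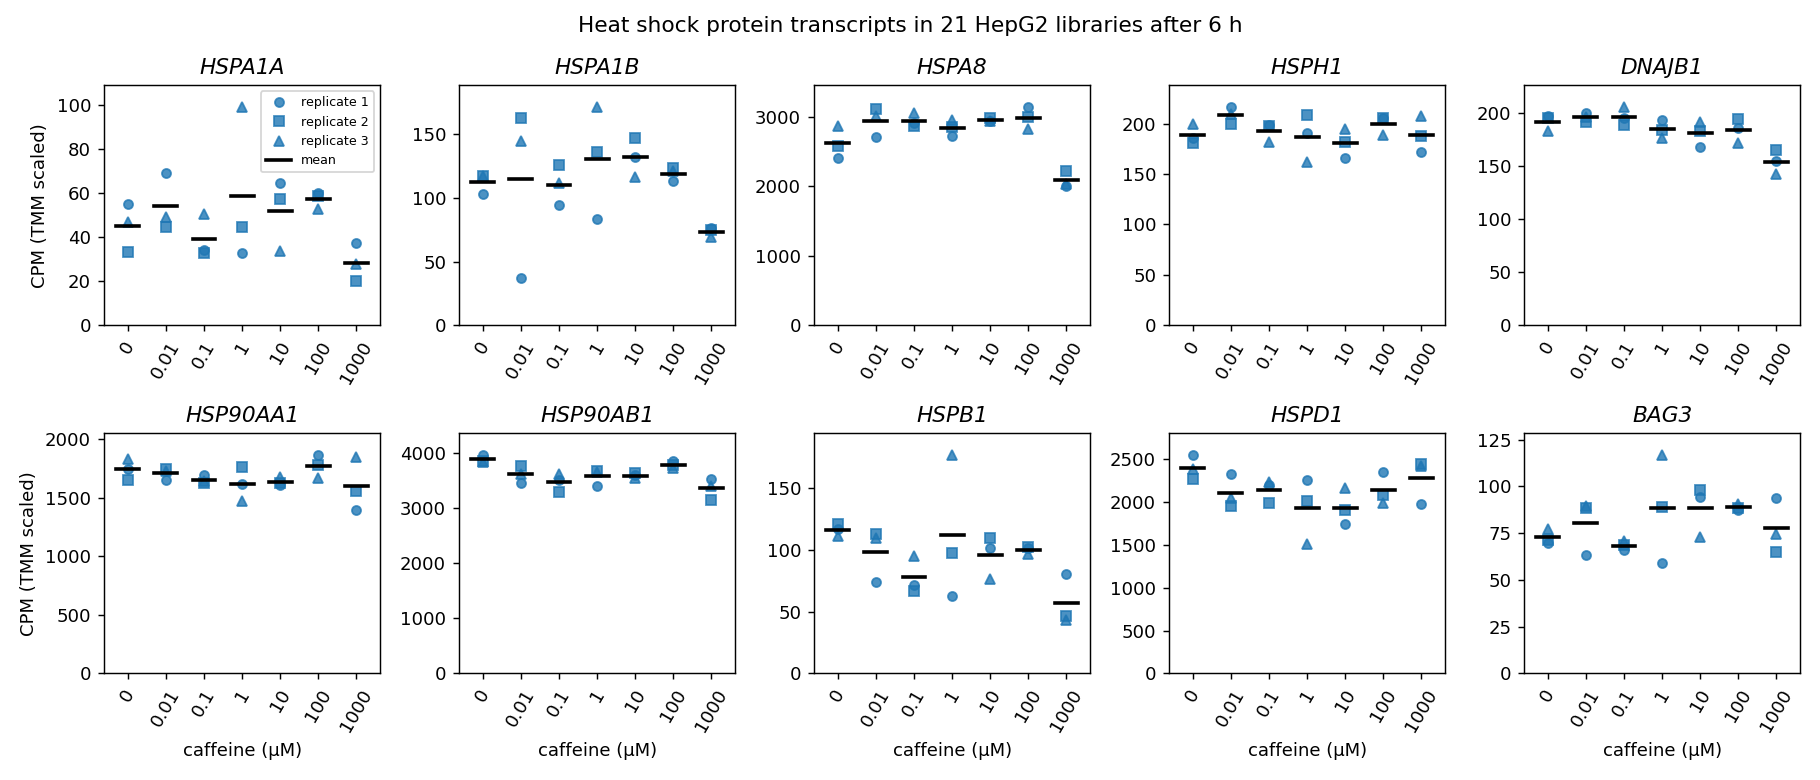
CPM after TMM scaling (y axis, linear from 0) against caffeine dose (x axis, µM) for each of the 10 genes; each point is 1 library and bars are means of 3. HSPA8 and DNAJB1 at 1000 µM lie below all 18 other libraries, and 1 µM replicate 3 is the highest library for HSPA1A, HSPA1B, HSPB1 and BAG3.

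None of the 10 genes passed the test at any dose from 0.01 to 100 µM, and at 1000 µM 4 were lower and 0 higher than in untreated cells. These 4 were HSPA8, DNAJB1, HSP90AB1 and HSPB1. The test was edgeR's quasi-likelihood test over all 17468 features with Benjamini-Hochberg adjustment at 0.05. At 1000 µM 41.2% of all features passed it, 20.6% in the lower direction, so that the share of members that passed in either direction was near that of all features. The median log2 fold change of the 10 members at 1000 µM was -0.26, and that of all features tested was -0.03.

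HSPA8, the constitutive HSP70 of the cytosol and a part of the uncoating machinery of clathrin vesicles, showed the clearest difference between doses. Its values were 2416, 2583 and 2866 CPM at 0 µM and 2002, 2229 and 2035 CPM at 1000 µM. The 15 libraries at 0.01 to 100 µM ran from 2706 CPM over a median of 2943 to 3148 CPM. All 18 other libraries were thus above the highest at 1000 µM, and all 15 at the doses between were above the median control. At 1000 µM against 0 µM the fold of HSPA8 was 0.797, with a 95% interval of 0.712 to 0.892. Its log2 fold change was -0.33 ± 0.08 (SE, edgeR adjusted p = 0.00272). It was -0.30 (adjusted p = 0.00646 by edgeR) with the GC and length trends removed. Without a filter on low counts the edgeR adjusted p was 0.0817 for HSPA8, 0.0659 for DNAJB1 and 0.354 for HSP90AB1, and of the 4 genes HSPB1 alone passed. Within the introns of HSPA8 lie SNORD14C, SNORD14D and SNORD14E, whose reads may have been counted with it.

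Set against the mean of the 4 doses from 0.01 to 10 µM, a comparison that uses no untreated library, HSPA8 was lower at 1000 µM by a log2 fold change of -0.49 ± 0.06 (SE, edgeR adjusted p = 1.49e-05). In this comparison 4 of 10 members were lower and 0 higher, against 14.4% and 16.3% of all features and 30.7% in either direction. The median over the members was -0.19, and over all features -0.02. HSPA8 also differed among the 7 doses (edgeR adjusted p = 0.000797), as did 1 further member, DNAJB1 (adjusted p = 0.0241 by edgeR), where 28.1% of all features did. Among the 18 libraries below 1000 µM neither did (edgeR adjusted p of 0.436 and 0.667). From 0.01 to 100 µM HSPA8 had log2 fold changes of 0.12 to 0.19 against untreated cells, with edgeR adjusted p of 0.116 to 0.366. DESeq2 gave it an adjusted p of 0.0485 at 10 µM and 0.0449 at 100 µM, and edgeR gave 0.0465 at 10 µM without 0 µM replicate 3, 0.0440 without 0.01 µM replicate 1 and 1 µM replicate 3, and 0.0369 with the GC and length trends removed (log2 fold change 0.24).

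DNAJB1 stimulates the ATPase of HSP70 and is a classical target of HSF1. It was at 197, 195 and 183 CPM in untreated cells and at 155, 165 and 143 CPM at 1000 µM. The 15 libraries between ran from 168 to 206 CPM with a median of 192. All 18 libraries below 1000 µM were above the highest at 1000 µM. The log2 fold change was -0.32 ± 0.08 (SE; fold 0.803, 95% interval 0.717 to 0.899; edgeR adjusted p = 0.00353). Against the mean of 0.01 to 10 µM it was -0.30 ± 0.06 (edgeR adjusted p = 0.00145). After removal of the GC and length trends the difference from untreated cells was -0.13 and did not pass (edgeR adjusted p = 0.130), while that from the mean of 0.01 to 10 µM was -0.23 and did (adjusted p = 0.00168 by edgeR). DNAJB1 was the 1 member with a slope over the dose step, the rank of the dose from 0 to 6: -0.04 on the log2 scale per step (edgeR adjusted p = 0.0099). With the trends removed its slope did not pass (edgeR adjusted p = 0.0766), and that of HSPH1 did instead (-0.05, edgeR adjusted p = 0.00346). A slope was called for 29% of all features, 14.5% lower. Among the 18 libraries below 1000 µM the slope of DNAJB1 was -0.02 (edgeR adjusted p = 0.291). The difference of DNAJB1 among the 7 doses did not pass without 0.1 µM replicate 1, 1000 µM replicate 1 or 1000 µM replicate 3 (edgeR adjusted p of 0.0559, 0.0916 and 0.143), or in the 18 treated libraries alone (0.0553). With no filter on low counts neither that difference nor the slope of DNAJB1 passed (edgeR adjusted p of 0.264 and 0.0771). The gene overlaps TECR and MIR639 on the other strand, and whether the counting used strand is not given in the sources used here.

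The cytosolic HSP90 genes are the constitutive HSP90AB1 and HSP90AA1, the form that heat induces. HSP90AB1 was at 3962, 3855 and 3827 CPM in untreated cells and at 3526, 3138 and 3398 CPM at 1000 µM, and these groups did not overlap. Its log2 fold change was -0.21 ± 0.06 (SE; fold 0.864, 95% interval 0.787 to 0.949; edgeR adjusted p = 0.0144). Of the 15 libraries between, 14 were also below the lowest untreated library, and against the mean of 0.01 to 10 µM the difference at 1000 µM was -0.09 ± 0.05 (edgeR adjusted p = 0.221). The call against untreated cells did not hold without 0 µM replicate 1 (-0.19, edgeR adjusted p = 0.0531), without 1000 µM replicate 2 (-0.14, edgeR adjusted p = 0.107) or in the 6 libraries at 0 and 1000 µM alone (-0.19, edgeR adjusted p = 0.0922). DESeq2 called a difference of HSP90AB1 among the 7 doses (adjusted p = 0.0201). HSP90AA1 was at 1747, 1655 and 1831 CPM at 0 µM and at 1396, 1553 and 1844 CPM at 1000 µM, so that the groups overlapped. Its log2 fold change was -0.13 ± 0.09 (SE; fold 0.916, 95% interval 0.803 to 1.04; edgeR adjusted p = 0.274). HSP90AA1 passed with the GC and length trends removed (-0.27, edgeR adjusted p = 0.0103) and without 1000 µM replicate 3 (-0.24, edgeR adjusted p = 0.0436). HSP90AA1 overlaps WDR20 on the other strand.

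**Figure D2:**
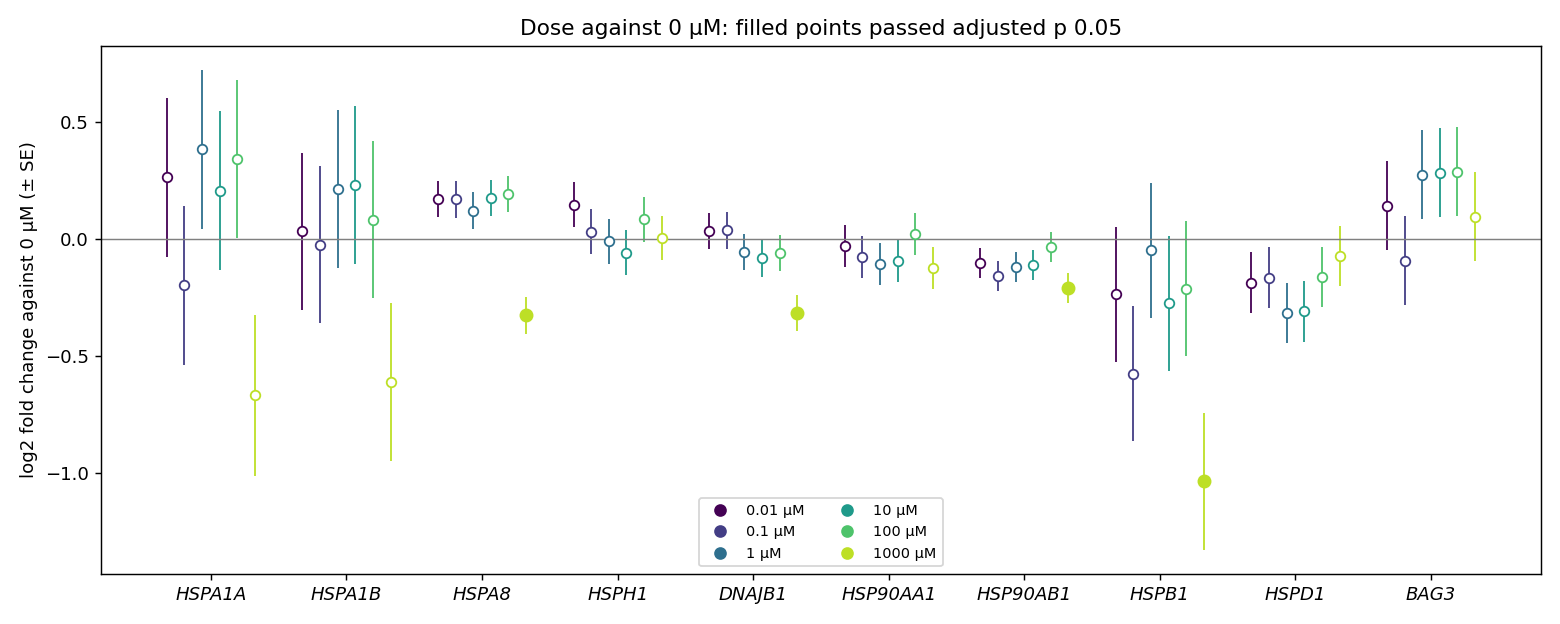
Log2 fold change against 0 µM (y axis) for each of the 10 genes (x axis) at 6 doses, in order of dose within each gene; bars are 1 SE on either side and filled points passed an edgeR adjusted p of 0.05. The 4 filled points are those of HSPA8, DNAJB1, HSP90AB1 and HSPB1 at 1000 µM.

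HSPB1, also called HSP27, is a small heat shock protein that holds unfolded proteins without using ATP. It was at 116, 121 and 111 CPM in untreated cells and at 80.4, 46.4 and 42.8 CPM at 1000 µM. The 15 libraries between ran from 62.3 CPM over a median of 97.3 to 177 CPM, and 13 of them were below the lowest untreated library. At 1000 µM against 0 µM the fold of HSPB1 was 0.487 (95% interval 0.319 to 0.745). Its log2 fold change was -1.04 ± 0.29 (SE, edgeR adjusted p = 0.00862). Removal of the GC and length trends brought it to -0.25 and did not pass (edgeR adjusted p = 0.313). Without 1000 µM replicate 3 it was -0.87 (edgeR adjusted p = 0.0539). Against the mean of 0.01 to 10 µM HSPB1 was lower by a log2 fold change of -0.75 ± 0.24 (SE, edgeR adjusted p = 0.0241), and this did not pass without 1000 µM replicate 2 (-0.62, adjusted p = 0.130 by edgeR), without 1000 µM replicate 3 (-0.59, edgeR adjusted p = 0.169) or with the trends removed (-0.35, edgeR adjusted p = 0.0899). Without 0.01 µM replicate 1 and 1 µM replicate 3 HSPB1 passed among the 7 doses (edgeR adjusted p = 0.0132) and had a slope over the dose step (-0.10, edgeR adjusted p = 0.0357). It also passed among the doses with DESeq2, with no filter on low counts, and without 1 µM replicate 1, 1 µM replicate 3 or 1000 µM replicate 1 (adjusted p of 0.0278, 0.0211, 0.0182, 0.0331 and 0.0423). At 100 µM HSPB1 passed in the 6 libraries alone (-0.22, edgeR adjusted p = 0.0359).

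The transcript of HSPB1 has 909 bases and a GC content of 64.5%, the highest of the 10, where the median tested feature has 49.4%. Over the 21 libraries, after the mean of each dose was subtracted, its log2 CPM had a Pearson r of 0.848 with the GC trend of the library. For HSPA1B r was 0.853, for BAG3 0.793 and for HSP90AB1 0.637. Their GC contents are 58.8%, 56.9% and 48.1%. HSPA1A, at 59.7% GC, had an r of 0.261 and DNAJB1, at 53.1%, an r of -0.108, so that the members did not follow the order of their GC contents throughout. The r of HSPD1 was -0.716 and that of HSPH1 -0.646, and these have 44.2% and 40.0% GC. HSPA8, at 47.0% GC, had an r of 0.416, and HSP90AA1, at 45.2%, one of -0.383. In 0.01 µM replicate 1, the library with the lowest GC trend (-0.304), HSPA1B was at -2.05 on the log2 scale against the mean of the other replicates. Its r without this library was not computed. The r values are descriptions over libraries that share depth and preparation, with no test.

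**Figure D3:**
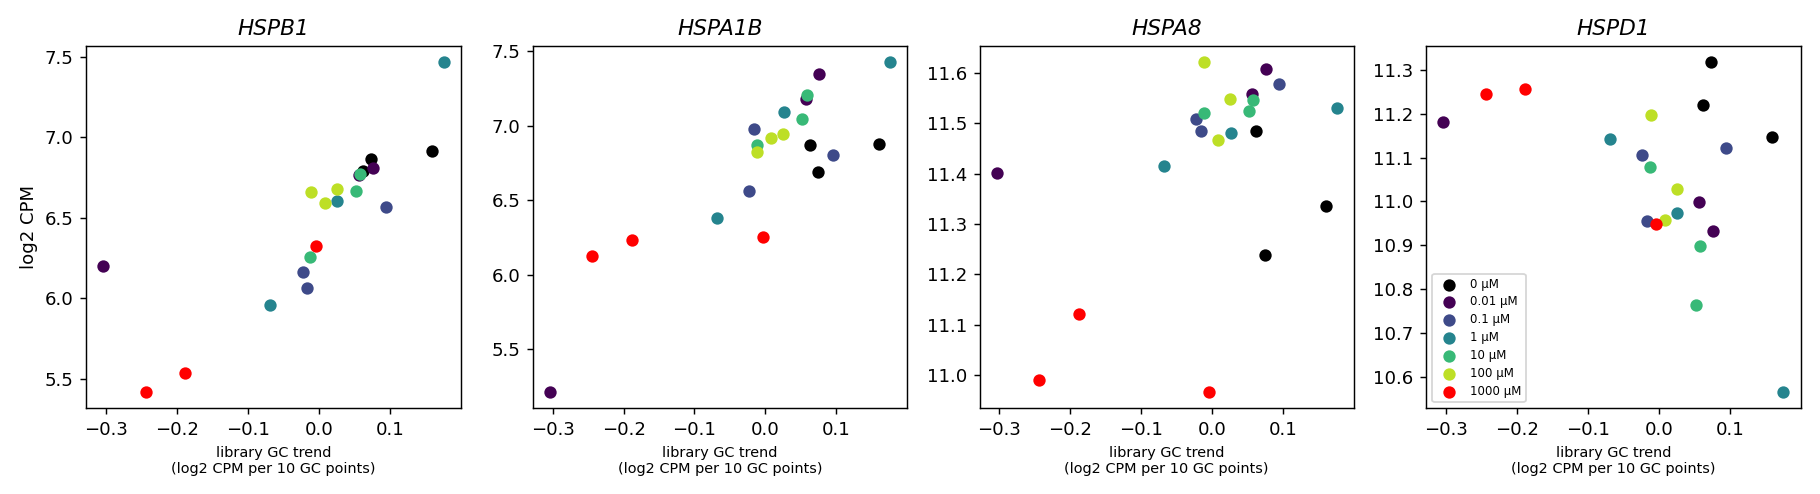
Log2 CPM (y axis, own range per gene) of HSPB1, HSPA1B, HSPA8 and HSPD1 against the GC trend of the library (x axis, log2 CPM per 10 GC percentage points); each point is 1 of 21 libraries, coloured by dose. HSPB1 and HSPA1B are higher, and HSPD1 lower, in libraries with a higher trend. For HSPA8 the 3 libraries at 1000 µM lie lowest, and their trends are -0.00373, -0.188 and -0.244.

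HSPA1A and HSPA1B encode the stress-induced HSP70 and lie side by side on chromosome 6. Their coding sequences of 1926 bases were 99.8% identical, with 4 mismatches, and 72.6% of the 50-base windows of the HSPA1A transcript (1766 of 2434) were also in HSPA1B. For HSP90AA1 and HSP90AB1, which are 65.1% identical, the number of shared windows was 0. How the counts of HSPA1A and HSPA1B are split therefore depends on how reads with more than 1 match were counted, which is not given in the sources used here. HSPA1A had 20.8% to 36.7% of the pair's CPM in 20 of the 21 libraries and 65.1% in 0.01 µM replicate 1. HSPA1B also overlaps AL671762.1 on the same strand.

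HSPA1A was at 55.0, 33.5 and 47.2 CPM in untreated cells and at 37.5, 20.0 and 27.8 CPM under 1000 µM caffeine, so that the groups overlapped. Its log2 fold change was -0.67 ± 0.34 (SE, edgeR adjusted p = 0.126). HSPA1B was at 103, 118 and 117 CPM in untreated cells and at 76.1, 75.2 and 69.7 CPM under 1000 µM caffeine, and its log2 fold change was -0.61 ± 0.34 (SE, edgeR adjusted p = 0.157). The 3 libraries of HSPA1B at 1000 µM were below 17 of the 18 others, the exception being 0.01 µM replicate 1 at 37.1 CPM. Without that library and 1 µM replicate 3 both HSPA1A (-0.65, edgeR adjusted p = 0.0418) and HSPA1B (-0.59, edgeR adjusted p = 0.00301) passed. With the GC and length trends removed neither did (HSPA1A -0.37, edgeR adjusted p = 0.407; HSPA1B -0.33, edgeR adjusted p = 0.402). In the 6 libraries at 0 and 1000 µM alone both passed (HSPA1A -0.66, edgeR adjusted p = 0.0496; HSPA1B -0.59, edgeR adjusted p = 0.00153), and with the mitochondrial share of counts as a covariate HSPA1A did (-0.91, edgeR adjusted p = 0.00373). Among the 7 doses HSPA1B passed without 0.01 µM replicate 1 (edgeR adjusted p = 0.00867) and without both libraries that stood apart (0.00211). HSPA1A passed there with no filter on low counts (edgeR adjusted p = 0.0429) and with the mitochondrial share as a covariate (0.0274).

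The sum of HSPA1A and HSPA1B does not depend on the split, but does depend on whether reads that match both genes were kept. It was 158, 151 and 164 CPM in untreated cells and 114, 95.2 and 97.6 CPM at 1000 µM. These groups did not overlap, and 17 of the 18 other libraries were above the highest at 1000 µM. The log2 difference of the sum was -0.63 ± 0.24 (SE; fold 0.647, 95% interval 0.455 to 0.919; edgeR adjusted p = 0.0446). Against the mean of 0.01 to 10 µM it was -0.76 ± 0.20 (SE, edgeR adjusted p = 0.00802), where HSPA1A alone was at -0.83 ± 0.29 (adjusted p = 0.0336 by edgeR) and HSPA1B alone at -0.72 ± 0.28 (adjusted p = 0.0588 by edgeR). HSPA1A did not pass there without 0.1 µM replicate 3, 1000 µM replicate 2 or 1000 µM replicate 3 (edgeR adjusted p of 0.0502, 0.191 and 0.125), or with the trends removed (-0.69, edgeR adjusted p = 0.0636). HSPA1B passed without 0.01 µM replicate 1 (-0.83, edgeR adjusted p = 0.000359), without 1 µM replicate 1 (-0.77, edgeR adjusted p = 0.0338) and without 0.01 µM replicate 1 and 1 µM replicate 3 (-0.76, edgeR adjusted p = 0.000129). It also passed with DESeq2, upper quartile scaling, no filter on low counts and at least 10 counts in every sample (adjusted p of 0.0471, 0.0451, 0.0245 and 0.0474). At the 5 doses below 1000 µM the fold of the sum against untreated cells was 0.950 to 1.20 and did not pass. At 100 µM it was 1.12, with a 95% interval of 0.788 to 1.59. The sum did not pass among the 7 doses (edgeR adjusted p = 0.0961) or for the slope over the dose step (edgeR adjusted p = 0.460). It was not fitted with the GC and length trends removed, a setting in which neither gene alone passed against untreated cells.

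**Figure D4:**
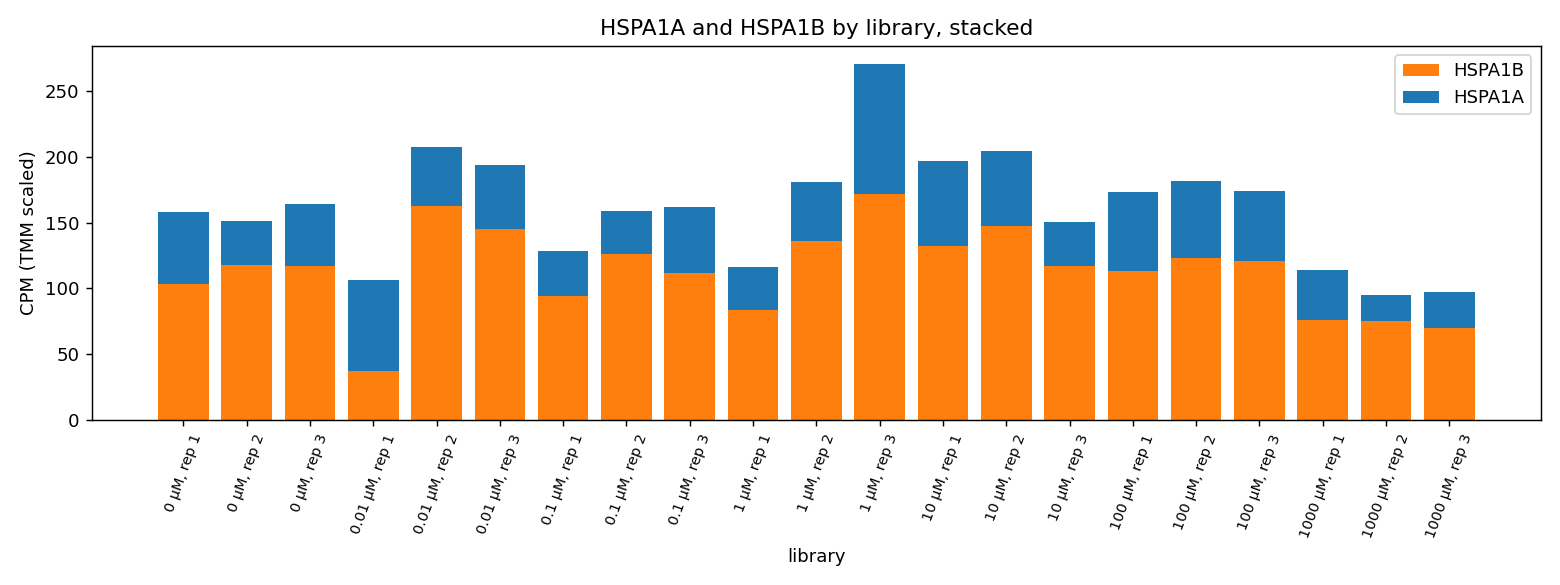
CPM of HSPA1A (blue) stacked on HSPA1B (orange) in each of the 21 libraries (x axis), from 0. The 3 bars at 1000 µM reach 95.2 to 114 CPM, and in 0.01 µM replicate 1 HSPA1A makes up the larger part of the bar.

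The exchange factors HSPH1 and BAG3 did not pass at any dose. HSPH1, also called HSP110, was at 186, 181 and 199 CPM in untreated cells and at 172, 188 and 208 CPM at 1000 µM. Its fold at 1000 µM was 1.00, with a 95% interval of 0.872 to 1.15. Once the GC and length trends were removed its log2 fold change turned from 0.00 to -0.40 and passed (edgeR adjusted p = 0.000269). HSPH1 then also passed at 10 µM (-0.26, edgeR adjusted p = 0.0166), against the mean of 0.01 to 10 µM (-0.24, edgeR adjusted p = 0.00330) and among the 7 doses (edgeR adjusted p = 0.00590). BAG3, which also links HSP70 to autophagy, was at 69.9, 71.5 and 77.4 CPM in untreated cells and at 93.7, 65.1 and 74.7 CPM at 1000 µM, a fold of 1.07 (95% interval 0.809 to 1.41). From 1 to 100 µM its log2 fold changes were 0.27 to 0.29 (edgeR adjusted p of 0.307 to 0.402). In a fit of the 6 libraries at 0 and 100 µM alone BAG3 passed (0.28, edgeR adjusted p = 0.0160).

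HSPD1 forms the HSP60 ring that folds proteins in the mitochondrial matrix, with HSPE1 as its lid. It was at 2552, 2267 and 2385 CPM in untreated cells and at 1977, 2446 and 2426 CPM at 1000 µM, which overlapped (fold 0.951, 95% interval 0.788 to 1.15). Of the 15 libraries between, 13 were below the lowest untreated one, and at 10 µM the log2 fold change was -0.31 ± 0.13 (SE, edgeR adjusted p = 0.0901). Without 0.01 µM replicate 1 and 1 µM replicate 3 this passed (-0.29, edgeR adjusted p = 0.0346), as it did in the 6 libraries at 0 and 10 µM alone (-0.30, edgeR adjusted p = 0.0360). HSPE1, which is transcribed away from HSPD1 from a shared promoter, was at 655 ± 140 CPM (SD, n = 3) in untreated cells and at 377 ± 30.1 CPM at 1000 µM. The log2 difference of HSPE1 was -0.80 ± 0.17 (SE, edgeR adjusted p = 0.00148), and -0.39 with the GC and length trends removed (edgeR adjusted p = 0.0639). HSPD1 and HSPE1 overlap on opposite strands.

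Below 1000 µM, the 10 members at 5 doses gave 50 comparisons with untreated cells, of which 0 passed by edgeR, with log2 fold changes of -0.58 to 0.38 and adjusted p of 0.0901 and above. Unadjusted p was under 0.05 in 7 of them. From the lowest dose to 100 µM that was 1, 2, 1, 2 and 1 members. Of all 17468 features, 4567, 2651, 3980, 6274 and 4467 were under 0.05 in the same order. DESeq2 called 0, 0, 0, 1 and 1 members, and 12.5%, 2.93%, 8.08%, 25.1% and 11.9% of all features. The share of all features that passed by edgeR was, in the same order, 4.95%, 0%, 0%, 22% and 6.02%. The largest upper bound of a 95% interval of the fold below 1000 µM was 2.13, for HSPA1A at 1 µM. Libraries did not overlap with the untreated ones in 2, 3, 2, 4, 2 and 5 of 10 members from 0.01 to 1000 µM, where this held for 32%, 22.5%, 23.6%, 45.8%, 43% and 53.2% of all features. All these comparisons share the 3 untreated libraries.

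The members differed in how much they varied between libraries of 1 dose. The SD of log2 CPM within a dose was 0.06 for HSP90AB1, 0.08 for DNAJB1 and 0.08 for HSPA8, in the lowest 2.91% of all features tested. It was 0.39 for HSPB1, 0.46 for HSPA1A and 0.50 for HSPA1B, above the 80.2 percentile. Between these lay HSP90AA1 at 0.10, HSPH1 at 0.11, HSPD1 at 0.17 and BAG3 at 0.26. With dose means subtracted, HSPB1 and BAG3 had an r of 0.916 over the 21 libraries, HSPD1 and BAG3 -0.851, HSPB1 and HSPD1 -0.804, and HSPH1 and HSP90AA1 0.798. HSPA1A and HSPA1B had an r of 0.02. The r with the mitochondrial share of counts was 0.773 for HSPA1A, 0.612 for BAG3, 0.548 for HSPB1, -0.618 for DNAJB1 and -0.673 for HSPD1. For the other members the r with this share lay between -0.462 (HSPH1) and 0.272 (HSP90AB1). With this share as a covariate HSPA1A passed at 1000 µM and among the 7 doses, as given above, and HSPB1 had a slope over the dose step (-0.11, edgeR adjusted p = 0.0341). No other call on a member changed with it.

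For the 3 members with the widest range of mean log2 CPM over the doses, the genes with the most similar pattern were sought among 9401 genes with a mean of at least 10 CPM. For HSPB1 they were ALDOA (Pearson r of log2 CPM over 21 libraries 0.979), METTL26 (0.977) and MDK (0.976). For HSPA1A they were BABAM2 (0.939), LSM12 (0.910) and ATP5PF (0.907), and for HSPA1B MUS81 (0.940), PCED1A (0.936) and TONSL (0.922). Over the same libraries the r with the GC trend was 0.835 for HSPB1, 0.394 for HSPA1A and 0.850 for HSPA1B. Whether the similar genes share that trend was not tested.

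Of 85 further genes of the chaperone network in the table, 81 were tested, and 13 were higher and 19 lower at 1000 µM than in untreated cells, where 20.6% of all features passed in either direction each. After the GC and length trends were removed, 17 of the 32 passed in the same direction, 5 of the 13 higher and 12 of the 19 lower. Further genes, HSF1 among them, passed there and not before, and 37.3% of all features passed there. Higher and lower genes were then 2 and 6 for HSP70 partners and 2 and 3 for HSP90 cochaperones. For mitochondrial chaperones and proteases they were 2 and 4, and for the CCT ring and prefoldin 0 and 5. For heat shock factors and regulators they were 4 and 1, for other targets 3 and 3, and for endoplasmic reticulum chaperones 0 and 3. Without 1000 µM replicate 3 the number of related genes that passed was 19. The named genes are those of smallest p in each list, up to 4.

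Among the partners of HSP70, 4 of 20 tested genes were higher and 5 lower (median log2 fold change -0.07). DNAJB4, a J-domain protein, rose from 12.4 ± 1.50 to 33.0 ± 5.10 CPM (SD, n = 3), a log2 fold change of 1.41 ± 0.14 (SE, edgeR adjusted p = 1.04e-06). It overlaps GIPC2 on the same strand, and how reads in the overlap were counted is not given. HSPA4L, an HSP110 relative, fell by 0.53 on the log2 scale and HSPBP1, an exchange factor, by 1.06. These 3 passed in all 17 alternatives run, but with the GC and length trends removed HSPBP1 was at -0.43 and HSPA4L at -1.10. STUB1, a ubiquitin ligase that works with HSP70, fell by 0.80, and with the GC and length trends removed it was at -0.08. HSPA6, a strictly heat-induced HSP70, had 0 to 5 counts per library, and HSPA1L had 0, so neither was tested.

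Of 10 HSP90 cochaperones, 2 were higher and 2 lower (median -0.09). FKBP5, also a glucocorticoid-induced gene, had a log2 fold change of 0.38, CHORDC1 of 0.40, PPID of -0.32 and FKBP4 of -0.22. With the GC and length trends removed FKBP5 was at -0.05 and CHORDC1 at -0.10 and neither passed, and PPID, at -0.29, did not pass either. CHORDC1 also did not pass without 1000 µM replicate 3, PPID without 0 µM replicate 1, 0 µM replicate 3 or 1000 µM replicate 2, and FKBP4 without 0 µM replicates 1 or 2 or 1000 µM replicates 1 or 3, each left out singly. FKBP4 and PPID did not pass without a filter on low counts or in the 6 libraries alone either. Of the small heat shock proteins listed beside HSPB1, CRYAB and HSPB6 were tested and 0 passed by edgeR.

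Of 12 mitochondrial chaperones and proteases, 2 were higher and 3 lower (median -0.21). Besides HSPE1, the protease HTRA2 fell by 0.75 on the log2 scale, and it passed in all 17 alternatives, with -0.40 (edgeR adjusted p = 0.0486) once the GC and length trends were removed. CLPX, the unfoldase of the ClpXP protease, was at 0.35 and GRPEL2, an exchange factor of mitochondrial HSP70, at 0.49. With the GC and length trends removed these were 0.02 and 0.11 and did not pass, and GRPEL2 did not pass without 0 µM replicate 2 or 1000 µM replicate 3.

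The CCT ring and prefoldin fold actin and tubulin. Of their 14 genes, 0 were higher and 6 lower at 1000 µM than in untreated cells (median -0.20), and 1 higher and 1 lower against the mean of 0.01 to 10 µM (median 0.01). PFDN6 fell by 1.07 and CCT4 by 0.58 on the log2 scale, and both passed in all 17 alternatives, PFDN6 with -0.71 once the GC and length trends were removed. PFDN5 was at -0.63 and PFDN2 at -0.53, and with the GC and length trends removed at -0.19 and -0.01, which did not pass. PFDN2 also did not pass without 0 µM replicate 1 or 1000 µM replicate 3.

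Of 6 heat shock factors and regulators, 3 were higher and 1 lower (median 0.12). HSF1 was at 68.8 ± 3.26 CPM (SD, n = 3) in untreated cells and at 59.8 ± 14.1 CPM at 1000 µM (log2 fold change -0.20 ± 0.18, SE; edgeR adjusted p = 0.381). With the GC and length trends removed its sign turned to 0.31 (edgeR adjusted p = 0.0361). HSF2 was at 0.38 ± 0.11 (SE, edgeR adjusted p = 0.0100) and did not pass without 1000 µM replicate 3 (0.31) or with the trends removed (0.21). EP300 and SIRT1, which add acetyl groups to HSF1 and remove them, were higher by 0.98 and 0.84 on the log2 scale, and both passed in all 17 alternatives, SIRT1 with 0.51 once the trends were removed. HSBP1, which binds HSF1 trimers, was at -0.47, or -0.84 with the trends removed, and did not pass in the 6 libraries alone or when 0 µM replicate 1 or 2 or 1000 µM replicate 1 or 3 was left out singly.

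Of 10 other known targets of heat shock factors, 1 was higher and 2 lower (median -0.17). MRPL18, a mitochondrial ribosomal protein, fell by 0.75, or 0.39 with the GC and length trends removed, and HSPA4L is also on this list, while CHAC1, which degrades glutathione and is also a target of the unfolded protein response, rose by 1.44 on the log2 scale. Of 8 chaperones of the endoplasmic reticulum, which are not under the same control, 1 was higher and 1 lower (median -0.19): HSPA5 fell by 0.34 and CANX was at 0.28. HSPA5 and CANX did not pass without a filter on low counts. CANX was at -0.02 with the GC and length trends removed, and did not pass without 0 µM replicate 1 or 2 or 1000 µM replicate 3, each left out singly.

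**Figure D5:**
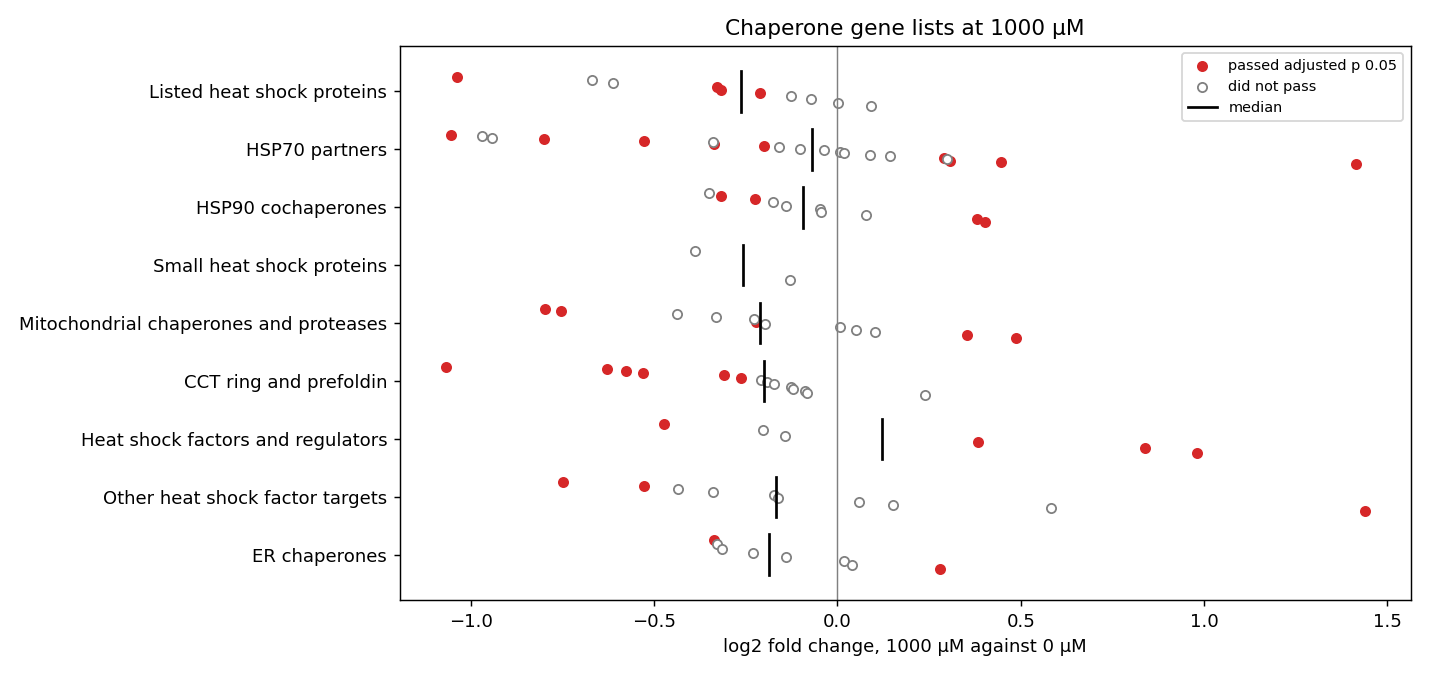
Log2 fold change at 1000 µM against 0 µM (x axis) of each tested gene in the 10 heat shock genes and in 8 lists of related chaperone genes (y axis); filled points passed an edgeR adjusted p of 0.05 and bars are medians. The CCT ring and prefoldin have 6 lower and 0 higher genes past the threshold, while the heat shock factors and regulators have 3 higher and 1 lower.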

How the data were processed

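Gene expression was measured by poly(A) RNA sequencing of 21 HepG2 samples. The deposited table holds whole-number counts per gene for each sample, made by the authors. The submitters' processing notes name HISAT2, DESeq2 and GRCh38 without roles or versions, and the counting program, annotation and use of strand are not given in the sources used here. A further 21 columns of per-sample values match no sample described here and were not used. Unannotated features, 0.573% of counts, were kept.

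Features were filtered with filterByExpr (minimum count 10), scaled by TMM and fitted in edgeR 4.0.16 (R 4.3.3) with 1 mean per dose over all 21 samples (14 residual degrees of freedom, common biological coefficient of variation 0.162). The quasi-likelihood test was two-sided, with Benjamini-Hochberg adjustment over 17468 features. The script was tested on simulated data. CPM values use TMM-scaled library sizes, and log2 CPM a prior count of 2. The members, lists and comparisons were chosen with earlier results of these data known. In each related list, genes past the threshold at 1000 µM were named up to the 4 of smallest p, plus HSF1 and HSF2, and for likeness of pattern the 3 genes of highest r with each of 3 members. Symbols for 24852 of 32937 Ensembl identifiers came from a gene name table. GC content and length (GENCODE v29) were available for 15694 of 17468 features (89.8%). Their removal, by a smooth trend per library, and the joint removal of 2 libraries were alternatives chosen after seeing the data. DESeq2 1.42.0 was another alternative. No 2 libraries of a dose agreed within sampling noise (chi-square per feature 5.46 to 207). The labels name no batch or sequencing date. In the fits with 1 mean per dose, the p-values rest on the spread between the 3 samples of a dose, pooled over the doses. The slope was fitted apart, as a straight line over the dose steps. Its p-values also take in departures of the dose means from that line.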

Additional observations from a re-analysis of the deposited data

How the results depend on the processing

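The number of the 10 heat shock genes that passed was recomputed with other tools, scalings, filters, covariates and sample sets. The causes of the changes below were not tested. A percentage in brackets beside a number is the share of all features that passed in the same fit. At 10 µM the number of members went from 0 (22%) to 1 (25.1%) with DESeq2 and 1 (32.7%) in the 6 libraries alone. It was 2 (21.3%) with the GC and length trends removed and 2 (31.1%) without the 2 libraries that stand apart. When single libraries were left out it was 0 to 1 (7.07% to 20.8%). At 100 µM it went from 0 (6.02%) to 1 (11.9%) with DESeq2 and 2 (24.7%) in the 6 libraries alone. At 1000 µM it went from 4 (41.2%) to 1 (HSPB1, 18.4%) with no filter on low counts and 5 (43.6%) with the mitochondrial share as a covariate. It was 5 (41.2%) with HSPA1A and HSPA1B summed, 5 (43.7%) in the 6 libraries alone and 6 (48.5%) without the 2 libraries that stand apart. With the GC and length trends removed it stayed at 4 (37.3%), but HSPH1 and HSP90AA1 replaced DNAJB1 and HSPB1. It was 3 to 4 (28.8% to 38.6%) when single libraries were left out. Against the mean of 0.01 to 10 µM it went from 4 (30.7%) to 2 (18.4%) at an adjusted p of 0.01. When single libraries were left out it was 2 to 5 (17% to 36.2%). Among the 7 doses it went from 2 (28.1%) to 1 (13.7%) at an adjusted p of 0.01 and 4 (37.7%) with DESeq2. It was 3 (28.9%) with the mitochondrial share as a covariate and 3 (30.7%) with the GC and length trends removed. It was 1 (12.8%) in the 18 treated libraries and 0 (0.918%) in the 18 libraries below 1000 µM. Without the 2 libraries that stand apart it was 4 (42.3%), and 1 to 3 (17.2% to 35%) when single libraries were left out. For the slope it went from 1 (29%) to 0 (12.4%) with no filter, 2 with the mitochondrial share and 0 in the 18 libraries below 1000 µM. It was 5 with a linear dose and 2 without the 2 libraries that stand apart. With the trends removed it stayed at 1, but HSPH1 replaced DNAJB1. The slope counts without brackets lack the share of all features in the same fit and cannot be set against it. The number of related genes that passed went from 32 (41.2%) to 19 (26.9%) at an adjusted p of 0.01. When single libraries were left out it was 19 to 29 (28.8% to 38.6%). Removal of the GC and length trends turned HSPH1 from 0.00 to -0.40, HSF1 to 0.31, FKBP5 to -0.047, CHORDC1 to -0.10 and CANX to -0.022. With the replicate number as a block, 4 heat shock genes passed at 1000 µM (39.3%) and 4 against the mean of 0.01 to 10 µM (28.4%). Among doses 2 passed (23.1%), and for the slope 1 (share not given), all as without the block. Of the related genes 30 passed at 1000 µM (39.3%). Whether the replicate numbers pair the samples is not given in the labels. With dose means subtracted, the 63 pairs of libraries with the same number had correlations of -0.437 to 0.249 (median 0.0199). The median for pairs with other numbers was -0.00497, and 5 of 21 libraries were closest to their own number. These correlations cannot decide on a pairing, since other differences between libraries, such as the GC trend, enter them too. With 3 samples a dose, the 95% interval of the fold at 1000 µM ran from 0.382 to 1.03 for HSPA1A and from 0.400 to 1.07 for HSPA1B.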
